A study of Mus musculus with 4 samples.

Results

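A set of 10 genes of the Notch pathway was followed in EO771 cells, a mammary carcinoma line from C57BL/6 mice: the receptor genes Notch1, Notch2, Notch3 and Notch4, the ligand genes Jag1, Jag2 and Dll1, the nuclear effector gene Rbpj and the target genes Hes1 and Hey1. They were taken by symbol from a table of 56350 genes, in which each of the 10 had 1 row. The 4 libraries of total RNA comprised 2 from cells labelled as given BML-210 (1.0 µM, 48 h) and 2 from control cells, which 1 label calls untreated and another vehicle-treated. The compound BML-210 inhibits histone deacetylases. All 4 libraries share the line, and nothing in the labels says that replicates were separate cultures, so p-values measure the spread between these libraries, which may be technical. The library codes carry a V in the BML-210 group and a D in the control group. Each direction given here follows these labels, BML-210 relative to untreated, and whether the groups were exchanged was not tested.

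Notch receptors are single-pass membrane proteins that are activated by ligands on neighbouring cells. Binding of a Jagged or Delta-like ligand leads to cleavage of the receptor by an ADAM protease and then by gamma-secretase, which frees its intracellular domain. In the nucleus that domain joins the DNA-binding protein RBPJ and a Mastermind coactivator and turns on genes such as Hes1 and Hey1, whereas RBPJ without it recruits corepressors that work in part through histone deacetylases. In the mammary gland the pathway takes part in luminal cell fate, and the mouse Notch4 gene is known as an insertion site of mammary tumour virus.

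The total gene count was 13167893 and 13961743 for BML-210 replicates 1 and 2, and 16534667 and 13855061 for untreated replicates 1 and 2. Counts were scaled to CPM, the usual unit of a count relative to its (here TMM-normalised) library size, on which 3 counts equal 0.183 to 0.227 CPM. Of the 10 genes, 7 had enough counts to be tested with edgeR's quasi-likelihood test, and Notch3, Jag2 and Hey1 did not. Of the 7, 5 passed an adjusted p of 0.05 (Benjamini-Hochberg over 14455 tested genes), 1 higher (Rbpj) and 4 lower (Dll1, Jag1, Notch4 and Notch1). Over all tested genes 46.4% passed, 22.9% being higher and 23.5% lower, so that calls were common in this comparison. The groups did not overlap for 6 of the 7 genes, against 71.3% of all tested genes. The median log2 fold change of the 7 was -0.14, and that of all tested genes -0.0025.

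**Figure D1:**
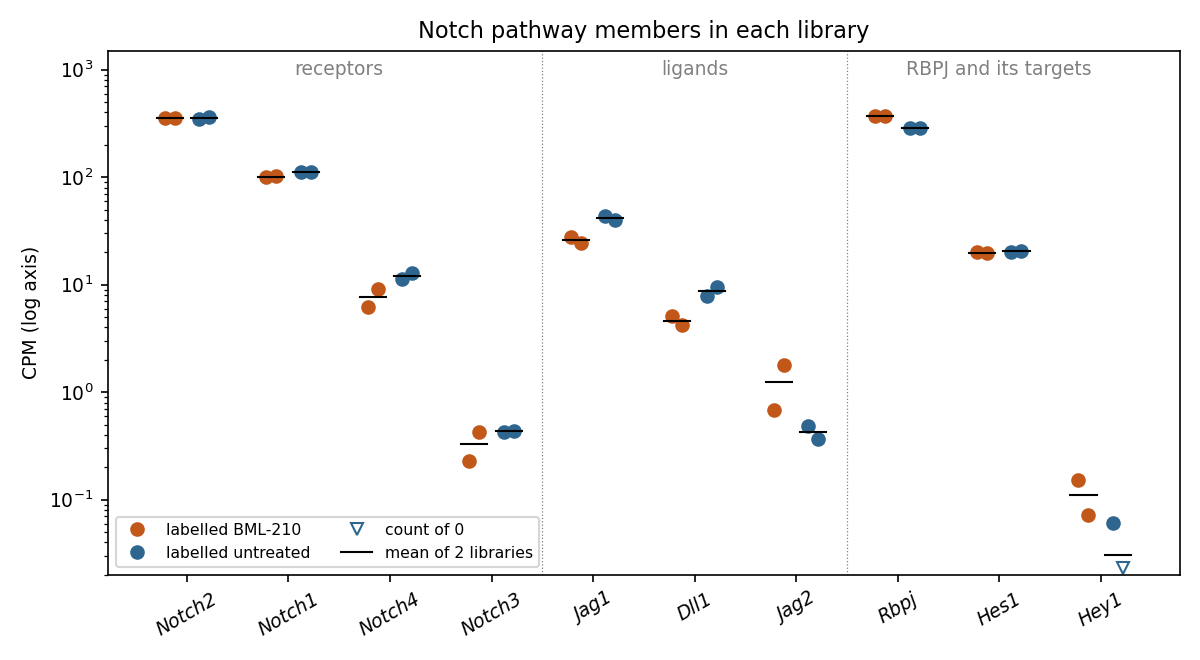
CPM (log axis) of the 10 genes in each library, the libraries labelled BML-210 (orange) left of those labelled untreated (blue), with a line at the mean of each group and an open triangle for a count of 0. The ligand genes Jag1 and Dll1 and the receptor gene Notch4 sit lower in both libraries labelled BML-210, Rbpj sits higher, and the means of Notch2 and of Hes1 lie close together.

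The 2 ligand genes with enough counts both fell. Dll1, which encodes a Delta-like ligand, had 5.07 and 4.21 CPM in the libraries labelled BML-210, against 7.85 and 9.61 CPM in those labelled untreated. The groups did not overlap, and the lowest untreated library lay well above the highest BML-210 library. Dll1 was thus 1.87-fold lower, with a log2 fold change of -0.91 ± 0.18 (SE, n = 2 libraries a group; adjusted p = 3.05e-05 by edgeR). An absolute change of this size or more was found for 8.94% of all tested genes. Its row (ENSMUSG00000014773.13, chromosome 17, 15367354 to 15376872, minus strand, mm10) rests on 67 and 59 counts in the libraries labelled BML-210 and on 129 and 132 in those labelled untreated. Exons of the non-coding gene A930024N18Rik on the opposite strand overlap 20.5% of the exonic length of Dll1. That gene had 3 counts over the libraries labelled BML-210 and 22 over those labelled untreated, and as no source used here states the strand setting of the counting, reads of the pair cannot be told apart. Among the other members, Notch1 shares 2.91% of its exonic length with Gm13568 and 7.5% with 0610009E02Rik. Notch2 shares 5.02% with Gm42820 and Notch3 6.03% with Gm17276.

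Jag1, which encodes a Jagged ligand (ENSMUSG00000027276.7, chromosome 2, 137081456 to 137116644, minus strand), was the most abundant of the ligand genes. It had 27.7 and 24.3 CPM in the libraries labelled BML-210, against 43.8 and 39.9 CPM in those labelled untreated. Both libraries labelled BML-210 lay below both others. The fall was 1.62-fold, a log2 fold change of -0.69 ± 0.08 (SE, n = 2 a group; adjusted p = 1.17e-10 by edgeR), and 14.7% of all tested genes changed by as much or more.

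Jag2, the other Jagged ligand gene, had 9 and 25 counts in the libraries labelled BML-210, against 8 and 5 in those labelled untreated, too few to pass the filter on low counts. The 34 counts of the libraries labelled BML-210 against 13 of those labelled untreated gave a CPM ratio of 2.90, with an exact 95% interval of 1.49 to 5.98 that covers counting error only. Most of these counts came from BML-210 replicate 2. With no filter on low counts the adjusted p of Jag2 was 0.0231 by edgeR. Without BML-210 replicate 1 its log2 fold change was 2.03, and without untreated replicate 1 or 2 it was 1.74 or 1.34. Without BML-210 replicate 2 the gene was not tested, so these fits let it in only through that library. Jag2 thus did not fall in these counts as Jag1 and Dll1 did, but its rise rests mainly on BML-210 replicate 2, near the limit of detection.

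Levels of different genes were set beside each other per kilobase of exon. The deposited length merges the exons of a gene, so comparisons between genes are approximate and depend on the annotation. On this measure the 3 ligand genes together reached 6.05 and 5.42 CPM per kb in the libraries labelled BML-210, against 9.45 and 9.18 CPM per kb in those labelled untreated. The means were 5.74 ± 0.450 and 9.32 ± 0.191 CPM per kb (SD, n = 2 a group). With 2 libraries against 2, an exact permutation test cannot give a two-sided p below 0.333. Jag1 made up 78.5% and 76.9% of the summed ligand level in the libraries labelled BML-210 and 79.6% and 74.6% in those labelled untreated, ranges that overlap. Dll1 made up 19.9% and 18.4%, against 19.7% and 24.8%, and Jag2 1.62% and 4.73%, against 0.740% and 0.570%. The summed ligand level was thus lower in both libraries labelled BML-210, and Jag1 made up most of it in all 4 libraries. Of 4 further ligand genes, none had enough counts to be tested. Dll4, a Delta-like ligand gene of endothelium, had 3 and 2 counts in the libraries labelled BML-210, against 4 and 3 in those labelled untreated.

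Of the 3 receptor genes tested, Notch4 and Notch1 fell and Notch2 did not pass. Notch2 (ENSMUSG00000027878.11, chromosome 3, 98013527 to 98150361) was the most abundant receptor gene, with 351 and 355 CPM in the libraries labelled BML-210, against 346 and 361 CPM in those labelled untreated. The values of the groups interleave. Its log2 fold change was -0.00026 ± 0.03 (SE, n = 2 a group; adjusted p = 0.996 by edgeR), with a 95% interval of -0.06 to 0.06. Notch1 (ENSMUSG00000026923.15, chromosome 2, 26457903 to 26516663) had 100.4 and 102 CPM in the libraries labelled BML-210, against 111 and 113 CPM in those labelled untreated. The groups did not overlap, but the gap was small, a fall of 1.10-fold with a log2 fold change of -0.14 ± 0.05 (SE; adjusted p = 0.0117 by edgeR). Of all tested genes, 70.6% changed by as much or more. The call of Notch1 ended with DESeq2 (adjusted p = 0.141), without BML-210 replicate 1 (0.0922) and without untreated replicate 2 (0.0546), in a range of 0.00216 to 0.141 over 13 alternatives.

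Notch4 (ENSMUSG00000015468.14, chromosome 17, 34564268 to 34588503) was much less abundant and had the largest change among the receptor genes tested. It had 6.21 and 9.13 CPM in the libraries labelled BML-210, against 11.4 and 12.9 CPM in those labelled untreated. Both libraries labelled BML-210 lay lower, replicate 1 most clearly. The gene was 1.57-fold lower, a log2 fold change of -0.65 ± 0.15 (SE, n = 2 a group; adjusted p = 0.000352 by edgeR). The size of the change depends on BML-210 replicate 1: without it the log2 fold change was -0.41 and the call ended (adjusted p = 0.053, in a range of 6.55e-06 to 0.053 over 13 alternatives), while leaving out BML-210 replicate 2 gave -0.96. Notch3, in which mutations cause a human small-vessel disease, had 3 and 6 counts in the libraries labelled BML-210, against 7 and 6 in those labelled untreated. The CPM ratio was 0.767 with an exact 95% counting interval of 0.289 to 1.94, so a difference was not detectable at this depth.

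Summed per kilobase, the 4 receptor genes came to 40.5 and 41.3 CPM per kb in the libraries labelled BML-210, against 41.3 and 43.0 CPM per kb in those labelled untreated, means of 40.9 ± 0.573 and 42.2 ± 1.18 CPM per kb (SD, n = 2 a group). The groups of receptor sums almost touch, and their means differ by less than the 2 untreated replicates do. Notch2 gave 80.6% and 79.7% of the receptor level in the libraries labelled BML-210 and 77.6% and 77.8% in those labelled untreated. Notch1 gave 17.4% and 17.4%, against 18.8% and 18.4%, and Notch4 1.90% and 2.75%, against 3.42% and 3.72%. On this approximate measure Notch2 made up most of the receptor transcripts in both groups. The summed receptor level was 6.68 and 7.62 times the ligand level in the libraries labelled BML-210, against 4.37 and 4.68 times in those labelled untreated.

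**Figure D2:**
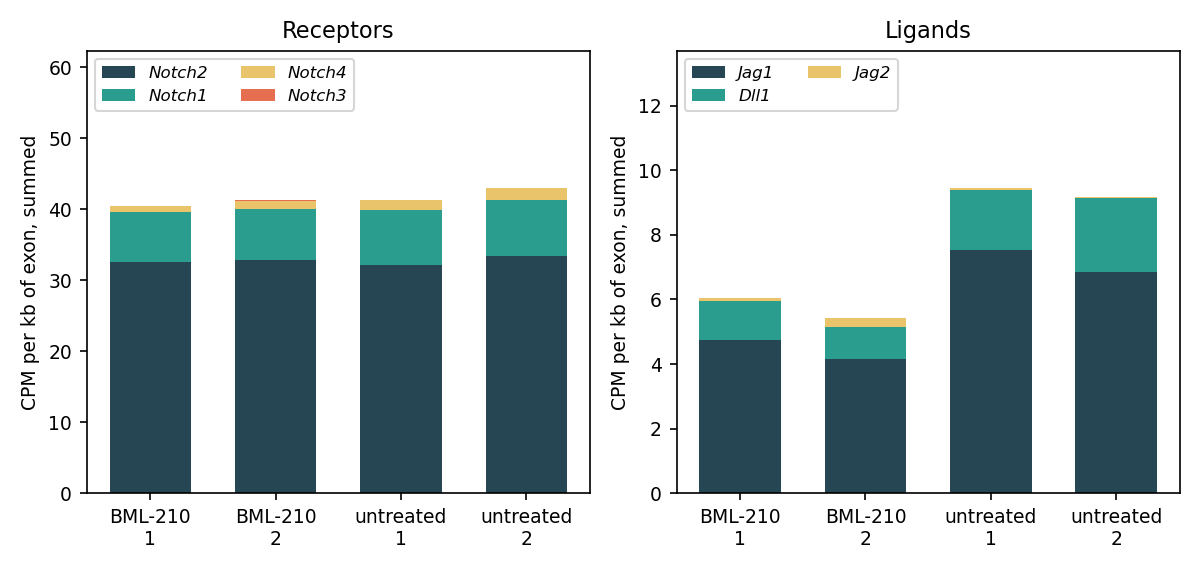
Summed level of the receptor genes (left panel) and the ligand genes (right panel) in CPM per kb of exon, 1 bar per library, stacked by gene and starting at 0. Receptor bars reach 40.5 to 43.0 in all 4 libraries, while ligand bars reach 5.42 and 6.05 in the libraries labelled BML-210 and 9.18 and 9.45 in those labelled untreated.

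Rbpj was the 1 tested member that rose. It encodes the DNA-binding partner of the cleaved receptor (ENSMUSG00000039191.12, chromosome 5, 53466152 to 53657362) and had 369 and 371 CPM in the libraries labelled BML-210, against 289 and 284 CPM in those labelled untreated. The groups stood far apart relative to the spread within each. Rbpj was 1.29-fold higher, a log2 fold change of 0.37 ± 0.03 (SE, n = 2 a group; adjusted p = 5.23e-15 by edgeR), and 35.2% of all tested genes changed by as much or more.

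Neither target gene was called, since Hes1 did not pass and Hey1 was too low to test. Hes1, a basic helix-loop-helix repressor and the best-known Notch target (ENSMUSG00000022528.8, chromosome 16, 30064384 to 30067796), had 20.1 and 19.6 CPM in the libraries labelled BML-210, against 20.3 and 20.5 CPM in those labelled untreated. Its log2 fold change was -0.04 ± 0.10 (SE, n = 2 a group; adjusted p = 0.756 by edgeR), and the 95% interval runs from -0.25 to 0.16. Hes1 was thus present in every library and was not called, although both libraries labelled BML-210 lay slightly below both others. Hey1, a related repressor gene, was at the limit of detection with 2 and 1 counts in the libraries labelled BML-210, against 1 and 0 in those labelled untreated, and no ratio is given. A count of 0 in untreated replicate 2 allows up to 0.219 CPM.

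**Figure D3:**
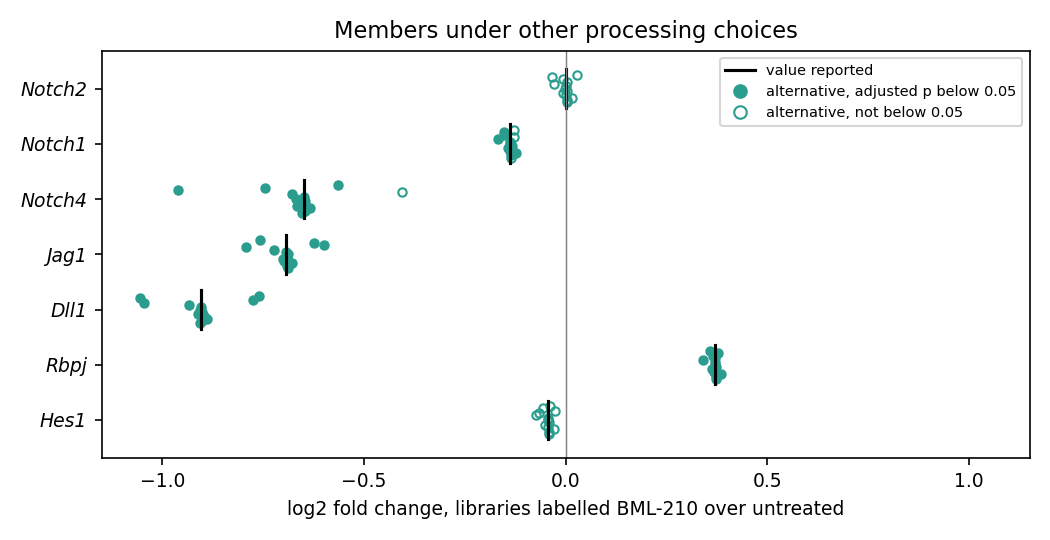
Log2 fold change of the 7 tested members as reported (black lines) and under 13 other processing choices (circles, filled where the adjusted p was below 0.05). Jag1, Dll1 and Rbpj keep their side of 0 and their call in each, Notch4 spreads from -0.96 to -0.41, and Notch2 lies on both sides of 0.

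Per kilobase, the order of the levels was nearly the same in both groups. The order depends on the merged exonic lengths, 10782 bases for Notch2, 12750 for Rbpj, 2037 for Hes1 and 14232 for Notch1. Notch2 stood highest at 32.7 ± 0.205 CPM per kb in the libraries labelled BML-210 and 32.8 ± 0.950 in those labelled untreated (SD, n = 2 a group), followed by Rbpj at 29.0 ± 0.109 and 22.5 ± 0.238, Hes1 at 9.72 ± 0.176 and 10.0 ± 0.0738, and Notch1 at 7.12 ± 0.0934 and 7.85 ± 0.0944 CPM per kb. None of these neighbours overlapped within a group. Jag1 came next with 4.46 ± 0.418 and 7.19 ± 0.474 CPM per kb, close under Notch1 in the libraries labelled untreated only. Dll1 had 1.10 ± 0.144 and 2.07 ± 0.296 and Notch4 0.952 ± 0.257 and 1.51 ± 0.133 CPM per kb, and in the libraries labelled BML-210 the values of these neighbours overlapped. Jag2, Notch3 and Hey1 reached at most 0.256 CPM per kb in any library.

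Shown are the bases before the start sites of the called members with the largest changes, Jag1, Dll1 and Notch4, which fell, and Rbpj, which rose. They are from RefSeq (GRCm38.p6, the assembly of mm10), in which 8 of the 10 genes had an entry. Hes1 and Hey1 had none. The window is the 250 bases before a start site (of 2 windows each for Dll1 and Rbpj, the one further upstream), shown 5′ to 3′ on the gene's strand up to the first base of an exon of that gene in the deposited table, at chr2:137116645-137116770 (minus strand) for Jag1, chr17:15376933-15377182 (minus strand) for Dll1, chr17:34564045-34564267 (plus strand) for Notch4 and chr5:53590096-53590213 (plus strand) for Rbpj. A stretch of 30 bases further on in the same Rbpj window, at chr5:53590269-53590298, is added for its motif. Capitals mark the core of the motif that RBPJ binds, TGGGAA or its reverse complement TTCCCA.
Jag1: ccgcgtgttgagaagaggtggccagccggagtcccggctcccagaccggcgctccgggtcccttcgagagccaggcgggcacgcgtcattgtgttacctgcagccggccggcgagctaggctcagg
Dll1: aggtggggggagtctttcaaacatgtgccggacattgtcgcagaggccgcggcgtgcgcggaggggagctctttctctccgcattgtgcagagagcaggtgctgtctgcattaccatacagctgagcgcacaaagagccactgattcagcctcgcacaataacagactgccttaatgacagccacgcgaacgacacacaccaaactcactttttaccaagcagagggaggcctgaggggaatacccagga
Notch4: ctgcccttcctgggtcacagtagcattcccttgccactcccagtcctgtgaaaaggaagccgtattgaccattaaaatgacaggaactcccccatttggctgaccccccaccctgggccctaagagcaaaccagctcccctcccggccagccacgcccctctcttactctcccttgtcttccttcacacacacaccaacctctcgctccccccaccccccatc
Rbpj: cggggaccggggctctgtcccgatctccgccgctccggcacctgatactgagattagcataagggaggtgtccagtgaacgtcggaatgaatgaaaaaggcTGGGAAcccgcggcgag
Rbpj, second match: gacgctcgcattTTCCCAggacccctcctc

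Searched on both strands, the core TGGGAA was found in 21.6% of 32851 mouse windows of the same length and in none of the windows of Notch1, Notch2, Notch3, Notch4, Jag1, Jag2 and Dll1, the last of which has 2. It was found in both windows of Rbpj, which lie inside the gene, overlap and share 1 match. The longer form GTGGGAA, which contains the core, was found in 5.42% of all windows and in none of these. The Dll1 window shown lies in an exon of A930024N18Rik on the opposite strand. GC content was 57.2% for Jag1, 56.0% and 64.0% for the windows of Dll1, 58.4% for Notch4 and 65.2% and 68.4% for those of Rbpj, against a median of 52.4% over all windows. These matches describe letters in a window and were not tested for binding.

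The other genes of the pathway were read from lists by role, 66 genes of which 52 were tested. Among these, 15 rose, 18 fell and 19 failed the test, so that 63.5% were called, against 46.4% of all tested genes, and the median log2 fold change was -0.04. DESeq2 called 19 of the 52, and 4335 of all 14455 tested genes. Of 6 tested coactivators of RBPJ, 5 were higher, 0 lower and 1, the acetyltransferase gene Ep300 (log2 fold change -0.04), did not pass, with a median of 0.23. Over all tested genes 22.9% were higher. All 3 Mastermind genes, whose proteins join RBPJ and the receptor domain, were among those 5. Kat2b and Snw1 were the others, with small changes (log2 fold change 0.19 and 0.13, edgeR adjusted p = 0.0358 and 0.0402). Exons of Slirp on the opposite strand overlap 44.2% of the exonic length of Snw1. Slirp had 699 counts over the libraries labelled BML-210 and 645 over those labelled untreated. The calls of Kat2b and Snw1 were not followed through the alternatives. Maml2 averaged 80.3 ± 2.41 CPM in the libraries labelled BML-210 and 45.1 ± 0.748 CPM in those labelled untreated (SD, n = 2 a group), a log2 fold change of 0.83 ± 0.06 (SE; adjusted p = 1.63e-18 by edgeR). Maml1 averaged 104 and 75.1 CPM (log2 fold change 0.48, edgeR adjusted p = 8.72e-12) and Maml3 115 and 94.9 CPM (0.27, 5.70e-06) in the libraries labelled BML-210 and untreated.

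Corepressors of RBPJ went both ways, with 3 higher, 3 lower and 5 not passing of 11 tested genes (median 0.05). Called over all tested genes were 22.9% as higher and 23.5% as lower. Spen, the scaffold that RBPJ uses to reach histone deacetylases, rose by 0.26 on the log2 scale to 149 CPM, against 124 CPM in the libraries labelled untreated. The Groucho-type corepressor gene Tle1 fell by 0.38 to 46.9 CPM, against 61.0 CPM, and L3mbtl3, whose protein binds RBPJ, fell by 0.28 to 29.5 CPM, against 35.9 CPM (edgeR adjusted p = 4.18e-07, 7.68e-07 and 0.00315). Leaving out BML-210 replicate 2 ended the call of L3mbtl3 (adjusted p = 0.149), as did DESeq2 (0.0784), in a range of 0.000728 to 0.149 over 13 alternatives.

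Genes that act on the ligands were lower in 4 of 5 tested cases and higher in 0 (median -0.15), against 23.5% lower over all tested genes. The endocytic adaptor genes Epn1 and Epn2 fell by 0.33 and 0.15 on the log2 scale, and Mib1, the ubiquitin ligase that triggers ligand uptake, fell by 0.12 (edgeR adjusted p = 3.77e-08, 0.00211 and 0.00471). Mib1 averaged 238 CPM in the libraries labelled BML-210 and 258 CPM in those labelled untreated, so this change was small, and its call ended with DESeq2 (adjusted p = 0.0769) and without BML-210 replicate 1 (0.053), in a range of 0.000412 to 0.0769 over 13 alternatives. That of Epn2 ended with DESeq2 (adjusted p = 0.0563, range 0.000266 to 0.0563). Among 5 genes that add sugars to the receptor, 2 were called, against 46.4% of all tested genes. Poglut1 was higher (0.27, edgeR adjusted p = 0.000155), Mfng, a Fringe gene at 1.70 CPM against 3.39 CPM, was lower (-0.996, 0.00382), and 3 did not pass. Leaving out BML-210 replicate 2 ended the call of Mfng (adjusted p = 0.117), as did DESeq2 (0.0768), in a range of 0.00148 to 0.117.

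Genes of receptor cleavage were lower in 4 of 9 tested cases and higher in 2 (median -0.13), against 23.5% and 22.9% of all tested genes. Furin, which cuts the receptor on its way to the surface, averaged 133 ± 2.94 CPM in the libraries labelled BML-210 and 168 ± 10.7 CPM in those labelled untreated (SD, n = 2 a group; log2 fold change -0.34, edgeR adjusted p = 1.23e-09). Adam10, the protease of the ligand-dependent cut, fell by 0.25 (edgeR adjusted p = 4.02e-07). Aph1b, a gamma-secretase subunit gene, fell to 4.64 CPM, against 11.6 CPM in the libraries labelled untreated (log2 fold change -1.32 ± 0.17, SE; adjusted p = 1.58e-09 by edgeR). Aph1b has a close paralogue, Aph1c, with 3 counts over the libraries labelled BML-210 and 1 over those labelled untreated, and the treatment of reads that match both is stated in no source used here. The more abundant Aph1a averaged 31.6 CPM, against 34.7 CPM, and did not pass (log2 fold change -0.13, edgeR adjusted p = 0.172). Ncstn, another gamma-secretase subunit gene, was higher (0.15, edgeR adjusted p = 0.0143). Exons of Copa on the opposite strand overlap 4.91% of the exonic length of Ncstn.

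In the list of receptor traffic and turnover, 2 of 10 genes rose, 3 fell and 5 failed the test (median -0.05). The shares over all tested genes were 22.9% higher and 23.5% lower. Dtx1, among those that fell, had 4 and 5 counts in the libraries labelled BML-210, against 13 and 16 in those labelled untreated. It passed the filter on low counts through the untreated libraries alone, so its lower call depends on that entry. Numbl, a homologue of the Drosophila Notch inhibitor Numb, fell to 22.4 ± 1.46 CPM, against 40.3 ± 4.55 CPM in the libraries labelled untreated (SD, n = 2 a group; log2 fold change -0.84, edgeR adjusted p = 2.08e-12). Dtx3l, a ubiquitin ligase gene of the Deltex family, rose to 25.7 ± 0.654 CPM, against 13.8 ± 1.34 CPM (0.88, 2.81e-10), and the ubiquitin ligase gene Itch rose by 0.35 (2.19e-08). Exons of Dtx3l overlap those of Parp9 on the opposite strand over 458 bases. Parp9 had 408 counts over the libraries labelled BML-210 and 248 over those labelled untreated, and reads of the shared bases cannot be told apart. Nrarp, a feedback inhibitor gene that Notch induces, had a mean of 8.27 CPM in each group (log2 fold change -0.0032 ± 0.16, SE; adjusted p = 0.989 by edgeR). Exons of Gm38287 on the opposite strand overlap 79.4% of the exonic length of Nrarp.

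Among the direct targets other than Hes1 and Hey1 the directions were mixed, with 2 higher, 2 lower and 1 not passing of 5 tested genes (median 0.09). The share called over all tested genes was 46.4%. The transcription factor gene Myc rose to 912 ± 7.03 CPM, against 713 ± 6.87 CPM in the libraries labelled untreated (SD, n = 2 a group; log2 fold change 0.36, edgeR adjusted p = 4.33e-17). The cell cycle inhibitor gene Cdkn1a fell by 0.32 (4.97e-11) and the transcription factor gene Sox9 by 0.24 (4.74e-07). Each of these genes is known to answer to other pathways as well. Of 7 further HES and HEY genes, 6 were too low to test, and Hes5, Hey2 and Heyl had at most 1 count in any library. Hes7, known for its oscillation in the embryo's segmentation clock, was expressed and fell to 19.4 ± 0.135 CPM, against 28.2 ± 3.52 CPM in the libraries labelled untreated (SD, n = 2 a group; log2 fold change -0.53 ± 0.10, SE; adjusted p = 7.58e-06 by edgeR). Exons of 9130213A22Rik on the opposite strand, with 14 counts over the libraries labelled BML-210 and 35 over those labelled untreated, overlap 12.9% of Hes7.

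**Figure D4:**
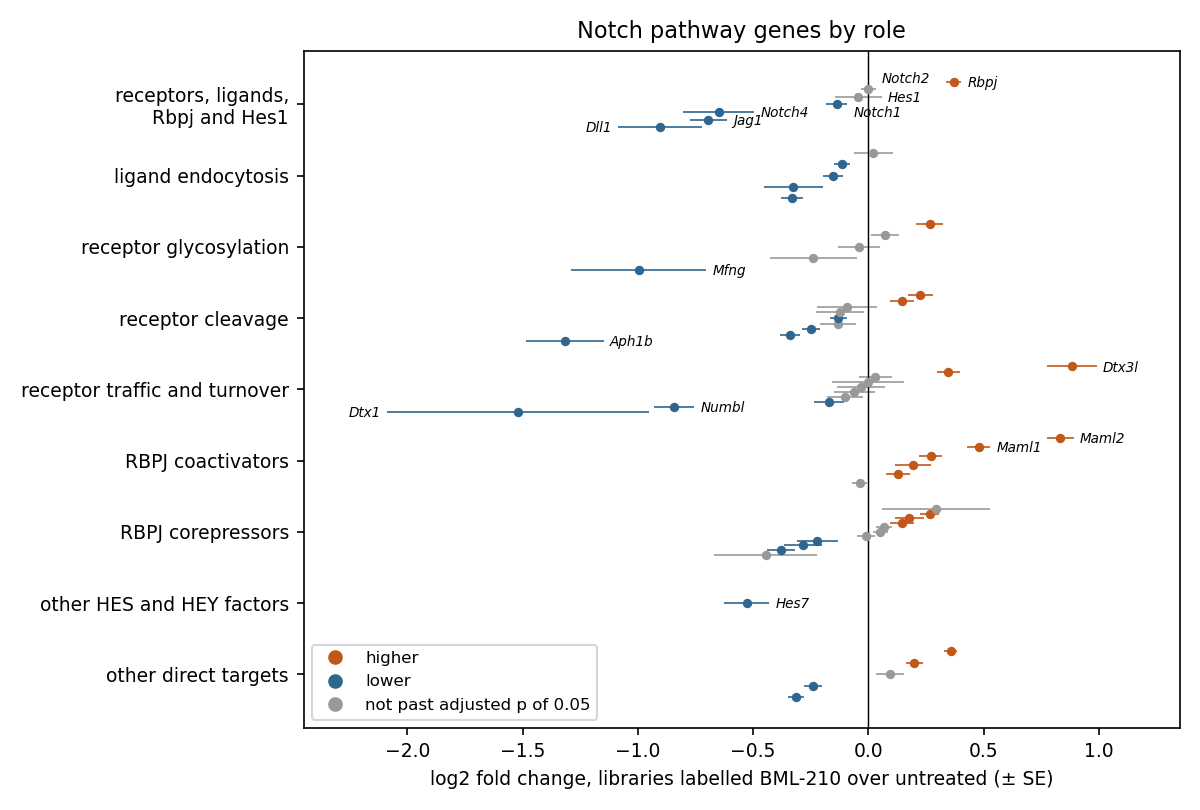
Log2 fold change (libraries labelled BML-210 over untreated, ± SE) of every tested gene by role, coloured by whether it was higher, lower or not past an adjusted p of 0.05. Of the RBPJ coactivators 5 of 6 are higher, of the genes of ligand endocytosis 4 of 5 are lower, and most other roles lie on both sides of 0.

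In pattern over the 4 libraries, the genes nearest to Hes1 by Euclidean distance in centred log2 CPM were Brd2 (0.00292), Rfng (0.00737) and Airn (0.00945), and those nearest to Notch1 were Rplp0 (0.00533), Pdia3 (0.0119) and Faf2 (0.0133), among 9477 tested genes whose mean was 5 CPM or more, predicted genes and clone-named genes left out. With 4 libraries of 2 groups, such nearness describes little more than a similar difference between the groups.

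Markers of the labelled tissue and of other cells that use the pathway were read beside these results. The epithelial keratin gene Krt8 had a mean of 30.7 CPM in the libraries labelled BML-210 and 46.4 CPM in those labelled untreated, while Krt18 and Epcam had at most 3 counts in any library, so that the epithelial label rests on few markers. All 8 epithelial markers summed to 32.6 and 36.1 CPM, against 50.4 and 55.0 CPM, with 2 of 3 tested genes lower (Krt8 and Esr1) and 0 higher. Leaving out BML-210 replicate 2 or untreated replicate 1 ended the call of Esr1 (adjusted p = 0.288 and 0.151), as did DESeq2 (0.165), in a range of 0.00373 to 0.288 over 13 alternatives. Endothelial markers, of the cells in which Notch4 is best known, summed to 8.71 and 8.13 CPM in the libraries labelled BML-210, against 9.07 and 7.72 CPM, with Kdr and Pecam1 the highest, Emcn and Sox17 at 0, and 1 of 3 tested genes lower. Erg, the endothelial transcription factor gene that passed, had 2 and 8 counts in the libraries labelled BML-210, against 23 and 21 in those labelled untreated (log2 fold change -1.97, edgeR adjusted p = 0.00114). Without BML-210 replicate 1 the log2 fold change of Erg was -1.34 and the call ended (adjusted p = 0.0709, in a range of 0.00053 to 0.0709 over the 12 alternatives that tested it), and without BML-210 replicate 2 it was -3.20. Cdh5, an endothelial cadherin gene too low to test, had 6 and 6 counts, against 17 and 7. Of these genes only Erg was thus called lower, and the counts of Cdh5 differ mainly through untreated replicate 1. The more abundant Kdr and Pecam1 did not pass (log2 fold change 0.23 and 0.58). The part of these endothelial genes in the fall of Notch4 was not tested. Markers of pericytes and smooth muscle summed to 138 and 136 CPM, against 99.1 and 98.8 CPM, led by Pdgfrb and Acta2, with 2 of 6 tested genes higher and 2 lower. Fibroblast markers summed to 120 and 126 CPM, against 177 and 184 CPM, led by Pdgfra and Col1a1, with 1 of 3 tested genes higher and 1 lower. Macrophage markers summed to 9.69 and 12.3 CPM, against 14.7 and 11.9 CPM, led by Cd74 and Lyz2, with 1 of 4 tested genes lower. For comparison, 46.4% of all tested genes were called. Rgs5, a pericyte marker, had 0 and 2 counts in the libraries labelled BML-210, against 18 and 17. Adgre1, the macrophage marker called lower, had 1 and 4, against 33 and 13. Erg, Rgs5 and Adgre1 passed the filter on low counts through the untreated libraries alone, so their lower calls depend on that entry. The labels name the EO771 line alone, and bulk counts do not say which cells carried a marker transcript, nor tell fewer cells from less RNA per cell. The part of these marker differences in the changes of the Notch genes was not tested.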

How the data were processed

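The authors deposited 1 table of raw, whole-number read counts per gene, beside each gene's length and exon positions as its headers name them. The submitters' processing notes list STAR 2.5, Subread 1.5.1 (featureCounts), bcl2fastq and, at 3.20.8, edgeR, with mm10 as the build. Settings for strand, overlapping genes and multi-mapping reads are stated in no source used here.

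The whole table was fitted in R 4.3.3 with edgeR 4.0.16: filterByExpr with default settings, TMM factors, glmQLFit with robust=TRUE and glmQLFTest on the group alone, with 2 residual degrees of freedom, and Benjamini-Hochberg adjustment over 14455 genes. The SE is the log2 fold change over the square root of F, an approximation, and 95% intervals use it. CPM per kb divides by the deposited exonic length (merged exons). Alternatives were RLE, upper-quartile and no factors, other filters, a replicate block, robust=FALSE, DESeq2 1.42.0, limma 3.58.1 with voom, and leaving out each library. The steps were tested on simulated data.

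Sampling noise did not cover the difference between replicates (chi-square per degree of freedom 1.81 in the BML-210 group and 2.89 in the untreated group). Each library was therefore fitted as 1 sample, which does not show that replicates were separate cultures. The common coefficient of variation that edgeR fitted between replicates, beyond counting error, was 2.49%. The exact intervals of CPM ratios and the floors cover counting error only, and no source used here mentions molecular identifiers. Exon overlaps come from the deposited coordinates: 4 of the 10 members and 29 of the 66 other pathway genes share exon bases with another gene.

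The members and lists were chosen with earlier results of these data known. Named are all members, up to 3 called genes with the smallest adjusted p and 1 in the other direction per pathway list, the 2 most abundant genes per marker list, and the 3 genes nearest in pattern to Hes1 and to Notch1 (log2 of CPM plus 0.1). Chosen after their values were seen are Dll4, Aph1a, Aph1c, Ncstn, Ep300, Kat2b, Snw1, Nrarp, Dtx1, Hes5, Hey2, Heyl, Krt18, Epcam, Emcn, Sox17, Erg, Cdh5, Rgs5, Adgre1 and the genes named for overlapping exons. A gene that this rule names is not reported here.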

Additional observations from a re-analysis of the deposited data

How the results depend on the processing

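Over the 13 alternatives the calls of Jag1, Dll1 and Rbpj and their directions held, with log2 fold changes of -0.79 to -0.60, -1.06 to -0.76 and 0.34 to 0.38. Hes1 was called in none of them (-0.07 to -0.03, adjusted p = 0.588 to 0.901). DESeq2 called 4335 genes (6714 as reported), 19 of 52 other pathway genes (33 as reported, then 10 higher and 9 lower) and 4 of the 7 tested members, and with it Notch1 had a log2 fold change of -0.14 that did not pass. With each library left out, Notch1 ran from -0.15 to -0.13 and Notch4 from -0.96 to -0.41. Notch2 changed sign with DESeq2 (0.0023), library size only (0.016), limma-voom (0.0013), no filter on low counts (0.0040) and RLE size factors (0.0026), and ran from -0.033 to 0.028 with each library left out. Nrarp, not called in any of the 13, changed sign with DESeq2 (0.0011), library size only (0.013) and no filter on low counts (0.00095), and ran from -0.034 to 0.029 with each library left out. Of the uncalled markers, Cd74 ran from -0.069 to 0.22 and Col1a1 from -0.21 to 0.098 with each library left out. The cause of these shifts was not tested. Other scaling factors moved the median log2 fold change of all genes to between -0.03 and 0.01. Notch3 could be fitted only with no filter on low counts (-0.37, adjusted p = 0.792). The replicate number as a block gave 6847 calls and changed no call of a member. The labels give no ground for pairing, and the differences between replicates 1 and 2 correlated at 0.0159 between the groups. For the genes with under 40 counts over a group (Jag2, Notch3, Hey1), depth limits what can be said.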
